A study of Rattus norvegicus with 20 samples.

Results

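The enzymes and chaperones described here, which fold, hydroxylate and crosslink fibrillar collagen, are encoded by 10 genes: the lysyl oxidase Lox and the lysyl oxidase-like genes Loxl1, Loxl2, Loxl3 and Loxl4, the lysyl hydroxylases Plod1 and Plod2, the prolyl hydroxylase subunit P4ha3, the collagen chaperone Serpinh1 and the foldase Fkbp10. They were chosen by name, as the probe sets whose annotated gene symbol is on this list. 9 of the 10 were measured, each by a single probe set, among 15037 named genes, and Lox is not analysed here. The samples were vocal folds (VFs) of 20 male Sprague-Dawley rats. The methods give an age of 14 to 16 weeks for the rats that underwent injury. Injured animals were thus older the later they were sampled. Whether the controls matched them in age is not given. There were 5 animals each sampled 1, 4 and 8 weeks after injury, in which the lamina propria was separated from the thyroarytenoid muscle and removed, and 5 animals without injury were the healthy control group. The methods give the injury as unilateral or bilateral, while the labels have both folds dissected, and which injured samples hold an uninjured fold is not given in the sources used here. Each animal gave 1 array, hybridised with labelled cDNA made from its RNA, and all values below are log2 signals. Dissected VF tissue is a mixture of cell types, so that a gene made in more cells and a gene made at a higher level per cell cannot be told apart.

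Fibrillar collagen is modified before and after it leaves the cell. In the endoplasmic reticulum, prolyl hydroxylases stabilise the triple helix, lysyl hydroxylases prepare the lysines that will later be crosslinked or glycosylated, and chaperones hold the chains while they fold. Outside the cell, lysyl oxidases, which are copper enzymes, oxidise lysines and hydroxylysines of collagen and of elastin, and the resulting aldehydes form the crosslinks between molecules. Hydroxylation of the lysines in the telopeptides, the known task of Plod2 helped by Fkbp10, gives the more stable crosslinks typical of bone and of scar. In the VF, the lamina propria is the layer of collagen, elastin and ground substance under the epithelium that vibrates during phonation, and scar tissue there is stiff.

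The array medians ran between 4.83 and 4.92 in the injury groups, against 4.58 to 4.94 in the control group, with control replicate 3 lowest. The 18 hybridization control probe sets report material added for the hybridization and not RNA of the tissue. They averaged 9.94 to 10.44 on the injured arrays, against 8.84 to 9.59 on the control arrays, without overlap. The arrays of injured and control VFs thus differed in a measure that does not come from the tissue, and its part in the results was not tested beyond the fit with this signal as a covariate. Among tissue markers, 6 of the 7 measured genes of squamous epithelium and 5 of the 9 of skeletal muscle lay above the brightest of 23 background probe sets on every array, whereas none of the 7 cartilage genes and none of the 5 gland genes did. The background signal itself differed between the groups. The brightest background probe set had 6.14 to 7.14 on the injured arrays, against 5.0 to 5.70 on the control arrays, and the mean over the 23 was higher by 0.69, 0.60 and 0.56 at 1, 4 and 8 weeks than in the control group. Loxl1 and Serpinh1 were above the brightest one on all 20 arrays, and Loxl3 and P4ha3 on 0. At 1 week Loxl2, Plod2 and Fkbp10 were above it on 3 of 5 arrays each, against 2, 1 and 3 of 5 control arrays, and at 4 and 8 weeks on 0. Plod1 was above it on 2 arrays at 1 week, 2 at 4 weeks and 1 at 8 weeks, against all 5 control arrays, and Loxl4 on 0 injured arrays, against all 5 control arrays. All 9 genes were above the mean of the background probe sets on all 20 arrays.

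Among the 9 measured genes, 6 rose 1 week after injury, and the other 3 did not pass the test. Serpinh1, Loxl2, Plod2 and Loxl1 were 2.50- to 2.98-fold above the control group, Fkbp10 2.04-fold and Loxl3 1.58-fold. No gene of the set fell. Of all 15049 named probe sets, 21.3% passed in this comparison and 11.2% were higher. The median log2 fold change was 1.03 over the 9 genes and 0.02 over all named probe sets. Values of 5 of the 6 called genes did not overlap between the groups, whereas 8.21% of all named probe sets were higher without overlap. Fkbp10 was the exception. These calls come from limma's moderated test with Benjamini-Hochberg adjustment over all named probe sets, with 5 animals a group.

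Serpinh1 encodes HSP47, the chaperone that binds procollagen in the endoplasmic reticulum and that collagen-producing cells require. At 1 week its log2 signal was 10.12, 10.10, 10.26, 9.65 and 10.02 in the 5 animals, against 8.72, 8.61, 7.76, 8.52 and 8.65 in the control animals. Every injured animal stood above every control animal, and the lowest control value was that of replicate 3. The group means were 10.03 ± 0.23 and 8.45 ± 0.39 (SD, n = 5 each), a log2 fold change of 1.58 (SE 0.18, adjusted p = 8.3e-06). Without control replicate 3 the gene also passed the test. Fkbp10 encodes FKBP65, a peptidyl-prolyl isomerase that helps procollagen fold and helps Plod2 dimerise. Its log2 signal at 1 week was 6.54, 6.80, 6.51, 5.80 and 6.23, against 5.82, 5.34, 4.83, 5.47 and 5.26 in the control animals. A single injured animal, replicate 4, lay in the control range, just under control replicate 1. The log2 fold change was 1.03 (SE 0.19, adjusted p = 0.00090). Fkbp10 was above the brightest background probe set on 3 of 5 arrays in each of these groups. The mean background signal was higher by 0.69 at 1 week, and its part in the Fkbp10 difference was not tested.

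Plod2 encodes lysyl hydroxylase 2, which acts on telopeptide lysines. Its log2 signal at 1 week was 6.74, 6.80, 7.49, 5.99 and 6.23, against 5.10, 4.90, 4.77, 5.51 and 5.36 in the control animals. The 1-week values spread more widely than those of any other gene of the set (SD 0.58), with replicate 3 on top, yet all were above the controls. The log2 fold change was 1.52 (SE 0.24, adjusted p = 0.00018). Plod2 was above the brightest background probe set on 3 of 5 arrays at 1 week, against 1 of 5 in the control group. The part of the background in this difference was not tested. Plod1 encodes lysyl hydroxylase 1, which acts on lysines of the triple helix. It had 6.41, 6.55, 6.72, 6.22 and 6.39 at 1 week, against 6.45, 6.12, 5.47, 6.20 and 6.13 in the control animals, and the groups overlapped. Its log2 difference of 0.38 did not pass the test (95% confidence interval 0.04 to 0.72, adjusted p = 0.098), although it did after quantile normalization (0.47, adjusted p = 0.0087) and after centring each array on its median (0.40, adjusted p = 0.032). P4ha3 encodes an alpha subunit of prolyl 4-hydroxylase. It ran between 4.44 and 5.32 at 1 week, median 5.10, against 4.18 to 5.08, median 4.54, in the control group. The difference of 0.36 did not pass the test (95% confidence interval -0.06 to 0.77, adjusted p = 0.21). A difference in signal as large as that of Fkbp10 or Plod2 lies outside this interval. However, P4ha3 was above the brightest background probe set on 0 arrays, and the mean background signal was higher by 0.69 at 1 week. The interval therefore describes the signal only, and a change of that size in P4ha3 itself is not excluded.

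Loxl1 is the lysyl oxidase linked in mice to the upkeep of elastic fibres. Its log2 signal at 1 week was 8.41, 8.48, 8.58, 7.90 and 8.29, against 6.92, 6.99, 6.55, 7.46 and 7.14 in the control animals. The lowest injured animal was above the highest control. The log2 fold change was 1.32 (SE 0.17, adjusted p = 2.4e-05). Loxl2, which crosslinks collagen IV of basement membranes and fibrillar collagen, had 6.76, 6.63, 7.04, 5.95 and 6.72 at 1 week, against 4.89, 5.41, 4.65, 5.28 and 5.07 in the control animals. The groups did not overlap, and the log2 fold change was 1.56 (SE 0.19, adjusted p = 1.4e-05). Loxl2 was above the brightest background probe set on 3 of 5 arrays at 1 week, against 2 of 5 in the control group. The part of the background in the Loxl2 difference was not tested. Loxl3, a lysyl oxidase needed in mice for palate and spine development, had 4.87, 5.09, 4.70, 5.0 and 4.82 at 1 week, against 4.16, 3.97, 4.10, 4.65 and 4.30 in the control animals. The groups did not overlap, and the log2 fold change was 0.66 (SE 0.17, adjusted p = 0.0100). All these values lay under the brightest background probe set of their array, and the mean background signal was higher by 0.69 at 1 week, so that a change of Loxl3 and one of the background cannot be told apart. Loxl4, the remaining enzyme of the family, ran between 5.74 and 6.21 at 1 week, median 5.86, against 5.55 to 6.13, median 5.83, in the control group. Its difference was 0.07 (95% confidence interval -0.26 to 0.39, adjusted p = 0.80), an interval below those of Loxl1 (0.97 to 1.67) and Loxl2 (1.17 to 1.95) that overlapped that of Loxl3 (0.30 to 1.02). When the signal of the hybridization controls entered the fit as a covariate, Loxl2 was the 1 gene of the 9 to pass at 1 week (log2 fold change 1.97, adjusted p = 0.024), while the estimates of Serpinh1, Plod2, Loxl1 and Fkbp10 were 1.34, 1.57, 1.22 and 1.11 with adjusted p between 0.096 and 0.19. The estimate for Loxl3 was 0.34 (adjusted p = 0.72).

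**Figure D1:**
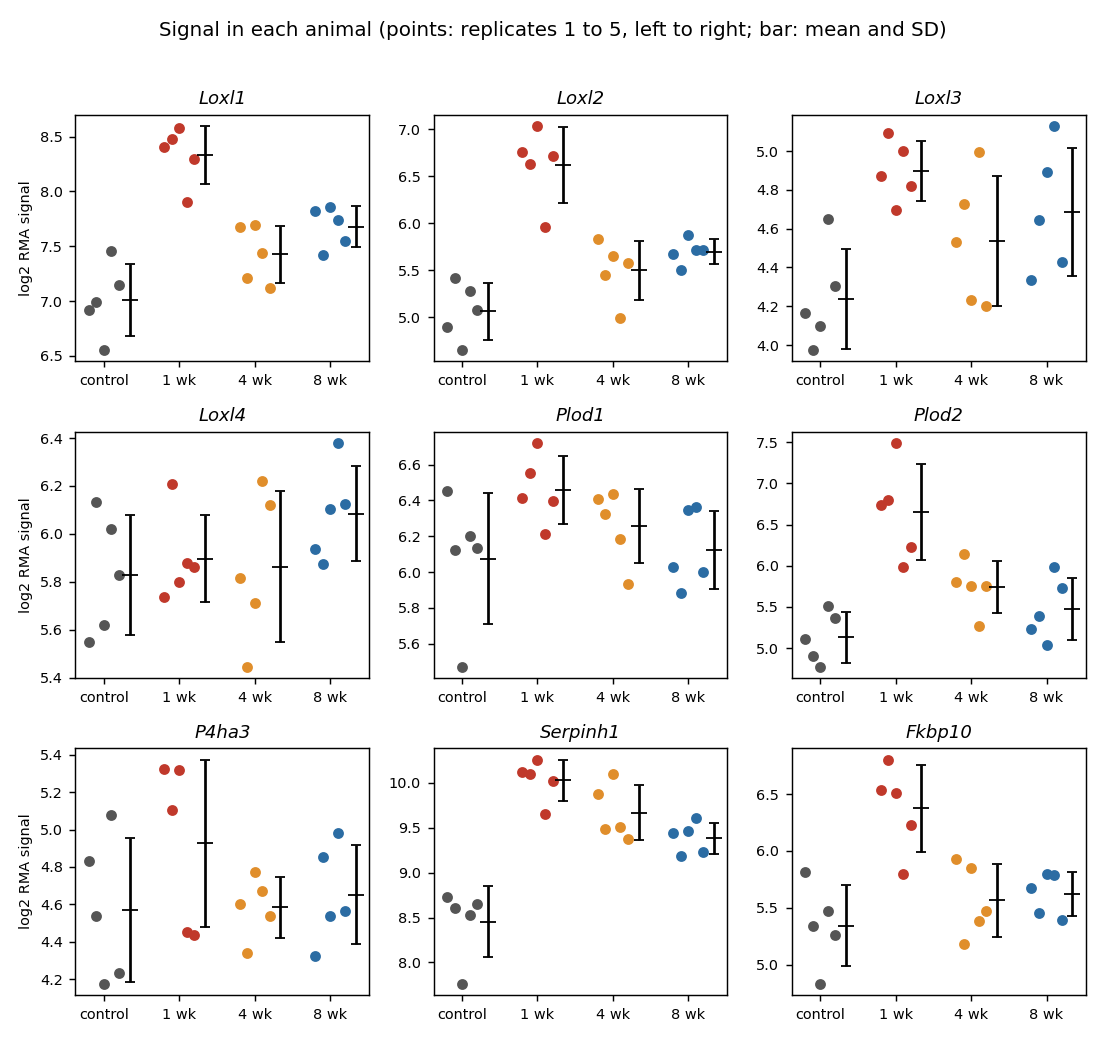
Log2 signal of the 9 measured genes in each of the 20 animals, by group (points are replicates 1 to 5 from left to right, bars the mean and SD, and each panel has its own vertical axis). At 1 week all 5 animals lie above all controls for Loxl1, Loxl2, Loxl3, Plod2 and Serpinh1, as they do for Serpinh1 at 4 and 8 weeks and for Loxl2 at 8 weeks.

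Of the 6 genes called at 1 week, 4 have a RefSeq entry (7 of the 10 genes were matched). The DNA just before the transcription start is printed for 3 of these, Serpinh1, Plod2 and Loxl1, because these windows hold matches to the motifs that were looked up. Each is the 250 bases before the RefSeq start in the rat assembly GRCr8, read 5′ to 3′ along the gene, with the matches in capitals. Serpinh1 lies on the minus strand (chr1:163062977-163063226), Plod2 on the plus strand (chr8:101964068-101964317) and Loxl1 on the minus strand (chr8:67612225-67612474).
Serpinh1: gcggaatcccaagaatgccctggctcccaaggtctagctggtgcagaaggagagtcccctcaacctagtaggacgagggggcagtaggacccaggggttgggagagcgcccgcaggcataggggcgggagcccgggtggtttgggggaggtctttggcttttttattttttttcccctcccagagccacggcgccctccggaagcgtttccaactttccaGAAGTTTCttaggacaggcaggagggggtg
Plod2: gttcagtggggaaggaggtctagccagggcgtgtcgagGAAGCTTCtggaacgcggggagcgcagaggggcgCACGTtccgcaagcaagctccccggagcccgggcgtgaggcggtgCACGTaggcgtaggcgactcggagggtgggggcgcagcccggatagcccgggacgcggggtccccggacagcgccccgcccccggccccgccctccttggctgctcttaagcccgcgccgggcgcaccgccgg
Loxl1: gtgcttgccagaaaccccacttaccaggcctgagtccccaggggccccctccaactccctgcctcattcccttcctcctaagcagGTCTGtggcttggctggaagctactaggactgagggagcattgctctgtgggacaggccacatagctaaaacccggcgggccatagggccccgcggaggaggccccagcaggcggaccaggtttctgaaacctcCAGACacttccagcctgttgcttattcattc
The motifs were GAANNTTC, an inverted repeat like those in heat shock elements, ACGTG, the core bound by hypoxia-inducible factors, CAGAC, a SMAD-type element, TATAAA and CCAAT, each searched on both strands and chosen after the sequences were seen. No match of one overlapped a match of another in the printed windows. Serpinh1 had GAANNTTC 30 bases before the start. Plod2 had GAANNTTC 212 bases before the start and ACGTG on the other strand at 178 and 133 bases, in a window with 74.8% G and C. Loxl1 had CAGAC on the other strand at 165 bases and on the gene's strand at 31 bases. Plod1, which did not pass the test, also held GAANNTTC, at 9 bases, and CAGAC on the other strand at 126 bases. Loxl4 and P4ha3 held CAGAC as well, and the window of Loxl3 held none of the 5 motifs. Among 33469 RefSeq promoter windows of this length, 7.23% held GAANNTTC, 16.6% ACGTG, 42.9% CAGAC, 12.9% TATAAA and 34% CCAAT. A match is a string of letters, and no binding was measured.

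Later after injury fewer of the 9 genes passed against the control group, 1 at 4 weeks and 3 at 8 weeks, all of them higher. Of all named probe sets, 13% passed and 7.52% were higher at 4 weeks, and 11.6% passed and 6.96% were higher at 8 weeks. The median log2 fold change of the 9 genes was 0.30 at 4 weeks and 0.34 at 8 weeks, against 0.04 over all named probe sets at both times. The 3 comparisons with the control group share its 5 animals, so they are not independent of each other.

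Serpinh1 was the gene that passed at all 3 times. It had 9.88, 9.48, 10.10, 9.50 and 9.38 at 4 weeks, against the same 5 control values, of which 8.72 was the highest. The fold was 2.32 (log2 1.21, SE 0.18, adjusted p = 0.00030). At 8 weeks it had 9.44, 9.19, 9.46, 9.61 and 9.23, a 1.91-fold difference from the control group (log2 0.93, adjusted p = 0.0024). Neither group overlapped the controls, and at 8 weeks Loxl2 did not either, 2 of the 9 genes. Of all named probe sets, 6.04% were higher without overlap at 4 weeks and 5.93% at 8 weeks.

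Loxl1 had 7.67, 7.21, 7.69, 7.43 and 7.12 at 4 weeks and 7.82, 7.42, 7.85, 7.74 and 7.54 at 8 weeks, against at most 7.46 in the control group. The 4-week difference of 0.41 did not pass the test (adjusted p = 0.11), and the 8-week difference of 0.67 did (adjusted p = 0.014), with 1 animal inside the control range. Loxl2 had 5.83, 5.45, 5.65, 4.99 and 5.58 at 4 weeks and 5.67, 5.50, 5.87, 5.71 and 5.71 at 8 weeks, against at most 5.41 in the control group. The 5 animals at 8 weeks lay close together (SD 0.13) and above all controls, and the difference of 0.63 passed (adjusted p = 0.031), whereas that of 0.44 at 4 weeks did not (adjusted p = 0.12). At 8 weeks Loxl2 was above the brightest background probe set on 0 of 5 arrays, against 2 of 5 in the control group. The mean background signal was then 0.56 higher than in the control group, and its part in the 8-week difference was not tested. The 8-week call of Loxl2 was lost on leaving out any of 6 arrays, control replicates 1 and 3 and 8-week replicates 1, 3, 4 and 5 (adjusted p up to 0.073). In the fit with the hybridization control covariate, 0 of the 9 genes passed at 4 or 8 weeks, and the Serpinh1 estimates were 1.00 (adjusted p = 0.18) and 0.73 (adjusted p = 0.33).

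The remaining 6 genes did not pass at 4 or 8 weeks. Plod2 had 5.81, 6.15, 5.75, 5.27 and 5.75 at 4 weeks and 5.23, 5.38, 5.04, 5.98 and 5.73 at 8 weeks, with differences from the control group of 0.61 (adjusted p = 0.090) and 0.34 (adjusted p = 0.38). Both sets of animals overlapped the controls. Fkbp10 differed from the control group by 0.22 at 4 weeks (95% confidence interval -0.18 to 0.62) and by 0.28 at 8 weeks (-0.12 to 0.68). Loxl3 differed by 0.30 at 4 weeks (adjusted p = 0.27) and by 0.45 at 8 weeks (adjusted p = 0.099). Its 8-week animals spread between 4.34 and 5.13, across the top of the control range. Loxl4, Plod1 and P4ha3 differed from the control group by at most 0.25 at both times, with 95% confidence intervals between -0.40 and 0.58.

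**Figure D2:**
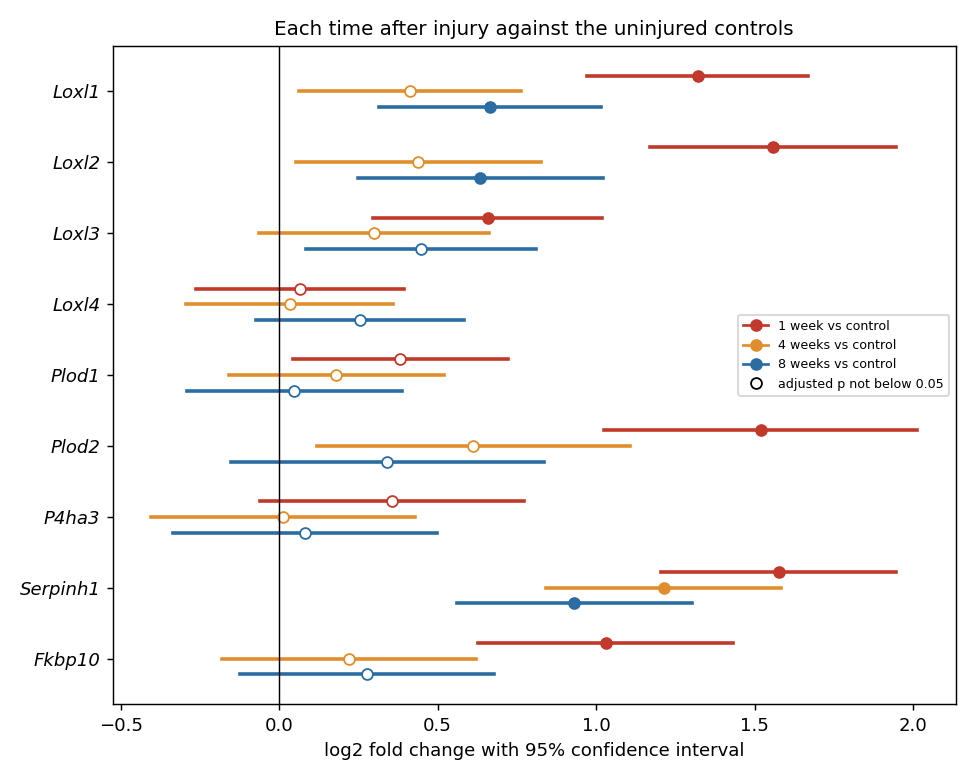
Log2 fold change of each injury group against the healthy control group with its 95% confidence interval, for the 9 measured genes (filled points have an adjusted p below 0.05). Filled points mark 6 genes at 1 week, Serpinh1 at 4 weeks, and Loxl1, Loxl2 and Serpinh1 at 8 weeks.

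The injury groups were then compared with each other. The control arrays do not enter these differences, but they enter the estimate of the spread in the common fit. At 4 weeks Loxl1 and Loxl2 were lower than at 1 week, in 2 of 9 genes tested, and of all named probe sets 0.126% passed in this comparison, all of them lower. Loxl1 fell by 0.91 on the log2 scale (adjusted p = 0.024) and Loxl2 fell by 1.12 (adjusted p = 0.010). Neither gene overlapped between the 4-week and the 1-week animals, which was so in the lower direction for 0.897% of all named probe sets. Plod2 and Fkbp10 differed by -0.91 (adjusted p = 0.15) and -0.81 (adjusted p = 0.12) and did not pass. Serpinh1 differed by -0.36 (95% confidence interval -0.73 to 0.01, adjusted p = 0.56).

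At 8 weeks Loxl2 and Plod2 were lower than at 1 week, again 2 of 9, with 0.233% of all named probe sets called and 0.199% lower. Loxl2 fell by 0.92 (adjusted p = 0.035) and Plod2 fell by 1.18 (adjusted p = 0.035). Loxl1, Loxl2, Plod2, Serpinh1 and Fkbp10 were lower at 8 weeks without overlap with the 1-week animals, which held for 1.05% of all named probe sets. Of these, Loxl1 (-0.66, adjusted p = 0.14), Serpinh1 (-0.64, adjusted p = 0.19) and Fkbp10 (-0.75, adjusted p = 0.14) did not pass the test. Between 8 and 4 weeks 0 of the 9 genes and 0% of all named probe sets passed limma's test, of the 9 genes 0 had an unadjusted p under the threshold, and 0 passed without moderation. The 95% confidence intervals of these 9 differences ran between -0.76 and 0.60.

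The 4 calls between injury groups depended on how the spread was estimated and on single arrays. With only the arrays of the groups compared in the fit, none of the 4 passed (adjusted p = 0.054 for Loxl1 and for Loxl2 at 4 weeks, 0.054 for Loxl2 and 0.092 for Plod2 at 8 weeks), and without moderation none did either (0.079, 0.0501, 0.11 and 0.14 in the same order). Conversely, Loxl1, Serpinh1 and Fkbp10 at 8 weeks against 1 week passed after quantile normalization, after centring and with array weights (adjusted p between 0.017 and 0.047), and so did Fkbp10 at 4 weeks (between 0.017 and 0.028). The call of Loxl1 at 4 weeks was lost on leaving out any of 6 arrays (1-week replicates 1, 2 and 3 and 4-week replicates 2, 4 and 5, adjusted p up to 0.11), and that of Loxl2 at 4 weeks on leaving out 1-week replicate 1 or 3 (up to 0.060). At 8 weeks the call of Plod2 was lost without any of 1-week replicates 1, 2 and 3 and 8-week replicates 1, 2 and 3 (up to 0.11), and that of Loxl2 was lost without any of 9 arrays, all but 1-week replicate 4 (up to 0.12).

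**Figure D3:**
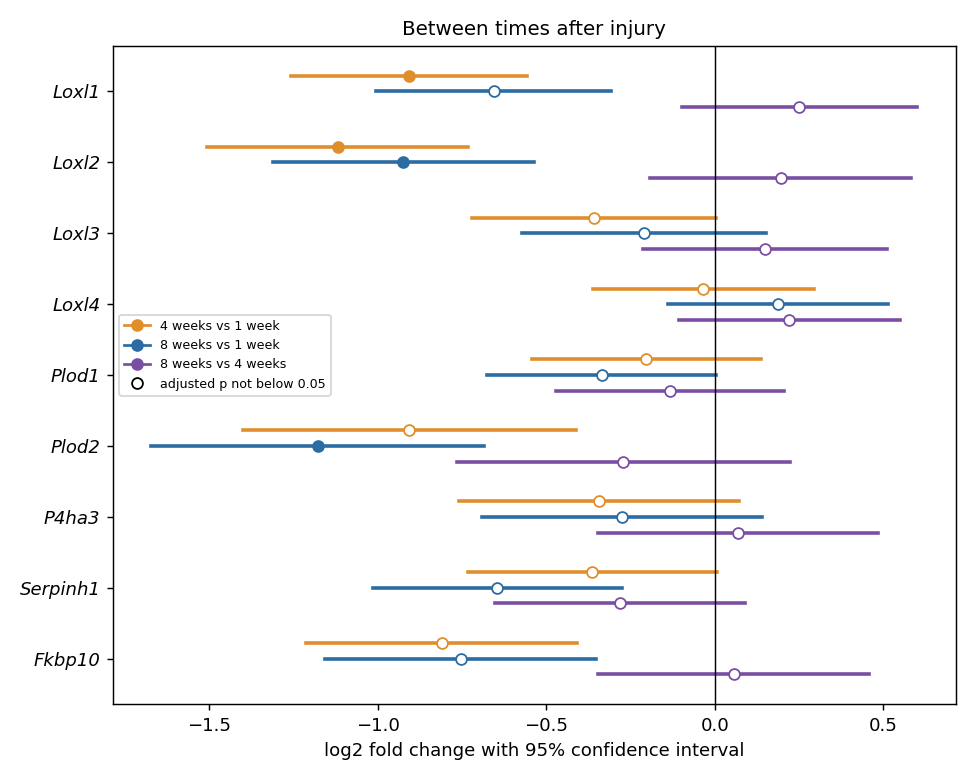
Log2 fold change between the injury groups with its 95% confidence interval, for the 9 measured genes (filled points have an adjusted p below 0.05). Loxl1 and Loxl2 are lower at 4 weeks than at 1 week, Loxl2 and Plod2 lower at 8 weeks than at 1 week, and no gene passes between 8 and 4 weeks.

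Animals of 1 group also differed in several of these genes at once. At 1 week, replicate 3 was highest in 5 of the 9 genes and replicate 4 lowest in 6, and the mean signal over the 9 genes was 6.93 in replicate 3 and 6.32 in replicate 4. Replicate 4 also had the lowest mean over 7 fibroblast markers, 8.10, with the other 1-week animals between 8.65 and 8.87. Its array had the highest hybridization control signal (10.44), background mean (3.61) and brightest background probe set (7.14) of the 20, and the part of these in its low values was not tested. In the control group, replicate 3 was lowest in 7 of the 9 genes. Its median over all named probe sets was 4.85, with the other control arrays between 5.19 and 5.28. At 8 weeks, replicate 4 was highest in 6 genes and replicate 2 lowest in 5. As a description, the deviations of the 20 arrays from their group means correlated positively in 34 of the 36 pairs of genes, with Pearson coefficients between -0.26 and 0.89 and a median of 0.43. Without control replicate 3, 30 pairs were positive and the median was 0.38. Plod1 and Serpinh1 were the closest pair (0.89, and 0.82 without that array), followed by Serpinh1 and Fkbp10 (0.83 and 0.80). All these arrays share their array-wide signal, which differs as described above.

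The named genes whose signal most resembled the mean standardised profile of the 9 genes over the 20 arrays were Pxdn (Pearson coefficient 0.94), which encodes peroxidasin, the enzyme that crosslinks collagen IV, Gask1b (0.94), Ctsk (0.92), which encodes the collagen-degrading protease cathepsin K, Dpysl3 (0.92) and Fbn1 (0.91), which encodes the microfibril protein fibrillin 1. Within the set, the coefficient with this mean profile ran between 0.95 for Loxl1 and 0.29 for Loxl4. Each of the 9 genes is part of that mean, so these coefficients cannot be set beside those of the other genes. This likeness includes the difference between the groups. For deviations from the group means, over the same 20 arrays, the closest genes were Anxa5 (0.88), Dpysl3 (0.87), Pxdn (0.87), Trip4 (0.86) and Peak1 (0.855), and without control replicate 3 they were Gask1b (0.89), Dpysl3 (0.86), Hace1 (0.86), Stambpl1 (0.86) and Arhgap20 (0.84).

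Other genes of the same pathway were counted over lists of 62 genes, of which 52 were measured. At 1 week 23 of the 52 were higher and 1 was lower than in the control group, with a median log2 fold change of 0.34, where 11.2% of all named probe sets were higher. The 4-week comparison had 12 genes that rose and 4 that fell, and the 8-week comparison 11 that rose and 1 that fell, where 7.52% and 6.96% of all named probe sets were higher. The number called was 9 at 4 weeks without 4-week replicate 3, against 16 with all arrays, and 7 at 8 weeks without any of control replicates 1 and 2 and 8-week replicates 3 and 4, against 12. With the hybridization covariate it was 2 at 1 week and 0 at both later times. The substrates of the enzymes, fibrillar collagen chains and elastin, were all higher at 1 week, 9 of 9 measured, with a median of 1.34. They include Eln, the elastin gene (2.35, adjusted p = 3.7e-07), Col5a1 (1.47, adjusted p = 1.7e-06), Col1a1 (1.80, adjusted p = 8.3e-06) and Col3a1 (1.60, adjusted p = 2.0e-05), which encode chains of collagens V, I and III. Of these 9 substrate genes, 8 were still higher at 4 weeks and 6 at 8 weeks.

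The other genes of the endoplasmic reticulum were counted by list. Of all named probe sets, 21.3% passed at 1 week and 11.2% were higher. Of 10 measured prolyl and lysyl modification enzymes, 3 were higher at 1 week and 1 was lower, with a median log2 fold change of 0.27. Colgalt1, which adds galactose to hydroxylysine, was higher by 0.84 (adjusted p = 0.0019), P3h3, a member of the prolyl 3-hydroxylase family that acts with lysyl hydroxylase 1 in mice, by 0.83 (adjusted p = 0.0021), and P3h4, its partner, by 0.64 (adjusted p = 0.013). P3h2, a prolyl 3-hydroxylase of basement membrane collagen, fell by 0.94 (adjusted p = 0.00098). P4ha1 and P4ha2, the main alpha subunits of prolyl 4-hydroxylase beside P4ha3, both had a difference of 0.21 and did not pass (adjusted p = 0.43 and 0.48). Among 15 measured general foldases, chaperones and export factors, 2 were higher at 1 week, Kdelr3 (0.91, adjusted p = 0.0096), a receptor that returns proteins to the endoplasmic reticulum, and Fkbp7 (0.72, adjusted p = 0.0067), and the median was 0.04. Hspa5, which encodes the general chaperone BiP, was 1 of the 13 that did not pass (difference -0.31, adjusted p = 0.44).

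Of 4 measured propeptide-processing genes, Pcolce, which enhances the C-proteinase, was higher by 0.88 (adjusted p = 0.00096) and Bmp1, the C-proteinase itself, by 0.56 (adjusted p = 0.029) at 1 week. Of 9 lysyl oxidase partners and copper carriers, 5 were higher. Postn, which encodes periostin, a matrix protein that promotes lysyl oxidase activation, was higher by 2.53 (adjusted p = 2.5e-05), Efemp2, which encodes fibulin 4, a lysyl oxidase partner in elastic fibres, by 0.67 (adjusted p = 0.0081), and Atox1, a copper chaperone, by 0.79 (adjusted p = 0.015). The others were Fn1 (0.88, adjusted p = 0.0036), which encodes fibronectin, and Sparc (0.74, adjusted p = 0.0041), which encodes a collagen-binding matrix protein. Atp7a, which loads copper onto secreted enzymes, had a difference of -0.02 (adjusted p = 0.94). Of 5 other matrix crosslinking enzymes, Pxdn (1.49, adjusted p = 5.0e-05) and the transglutaminase Tgm2 (0.48, adjusted p = 0.036) were higher. At 8 weeks Pxdn fell by 1.11 relative to 1 week (adjusted p = 0.018).

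**Figure D4:**
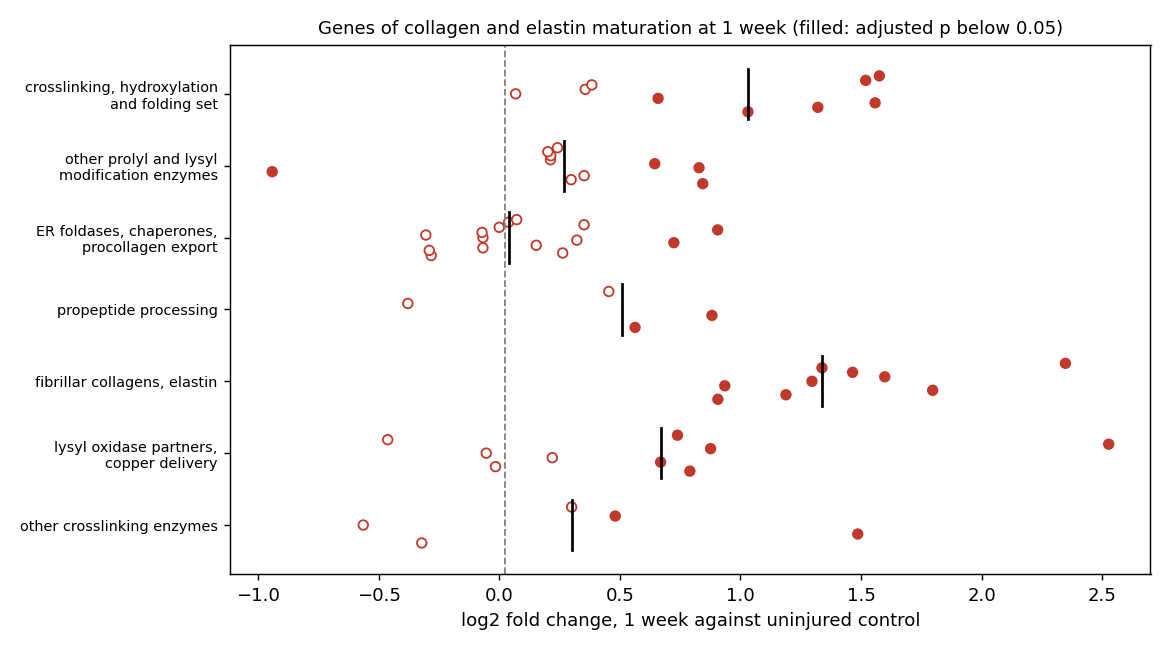
Log2 fold change at 1 week against the healthy control group for the 9 measured enzymes and chaperones and for 52 other genes of collagen and elastin maturation, by list (each point is a gene, filled where the adjusted p is below 0.05, and the vertical bars are list medians). The dashed line is the median over all named probe sets, 0.02, and the list of substrates lies wholly to its right.

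Some marker genes of the cell types that dissected VF tissue can hold also differed between the groups. Of all named probe sets, 11.2%, 7.52% and 6.96% were higher than in the control group at 1, 4 and 8 weeks. Lower were 1528, 821 and 700 of the 15049. At 1 week, a single called gene in a list of 7 or 8 is near these shares. Of 7 fibroblast markers, 4 were higher at 1 week (Lum 1.37, Fap 1.03, Mfap5 1.03 and Thy1 0.92), while Dcn, Pdgfra and Pdgfrb had differences of 0.07, 0.16 and 0.21 and did not pass. The mean signal over these 7 markers was 8.10 to 8.87 at 1 week, 7.96 to 8.42 at 4 weeks, and 8.02 to 8.40 at 8 weeks, against 7.67 to 8.25 in the control group, so that every injury group overlapped the controls. At 1 week only replicate 4, the array with the highest background, lay in the control range, and the other animals had 8.65 to 8.87. The mean over the 9 enzymes and chaperones ran between 6.32 and 6.93 at 1 week, against 5.33 to 6.02 in the control group, and did not overlap. Of 7 myofibroblast and smooth muscle genes, 0 were higher at 1 week in limma's test and 1, Myh11, was lower. Of 7 cartilage genes, 3 were higher at 1 week, with list means of 5.30 to 5.54, against 4.06 to 5.42 in the control group. Of 7 genes of regenerating muscle, 3 were higher at 1 week (list means 5.35 to 6.99, against 4.23 to 5.40). Their mean was highest in 1-week replicate 3, which was also the highest 1-week animal in 5 of the 9 enzymes and chaperones. Of 8 macrophage genes, 1 was higher at 1 week, 4 at 4 weeks and 2 at 8 weeks. The skeletal muscle list was not called for any gene at 1 week, but its mean was 6.89 in 8-week replicate 3 and 7.99 in control replicate 3, the lowest animals of their groups. Of 5 gland genes, 2 were lower at each time after injury, and at 1 week Bpifa2f fell by 4.28 and Lipf fell by 3.17 (list means 5.54 to 6.65, against 6.44 to 8.71 in the control group). Of 5 erythroid genes, 3 were higher at 1 week, Hbb by 2.18 (adjusted p = 0.00026), and the list means of 5.74 to 6.67 only just cleared those of the control group, 4.94 to 5.74. Single genes of the endothelial and epithelial lists were lower at 1 week, as Kdr fell by 0.74 and Cdh1 fell by 0.84, 1 of 7 measured genes in each list. The part of these markers in the results on the enzymes was not tested.

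**Figure D5:**
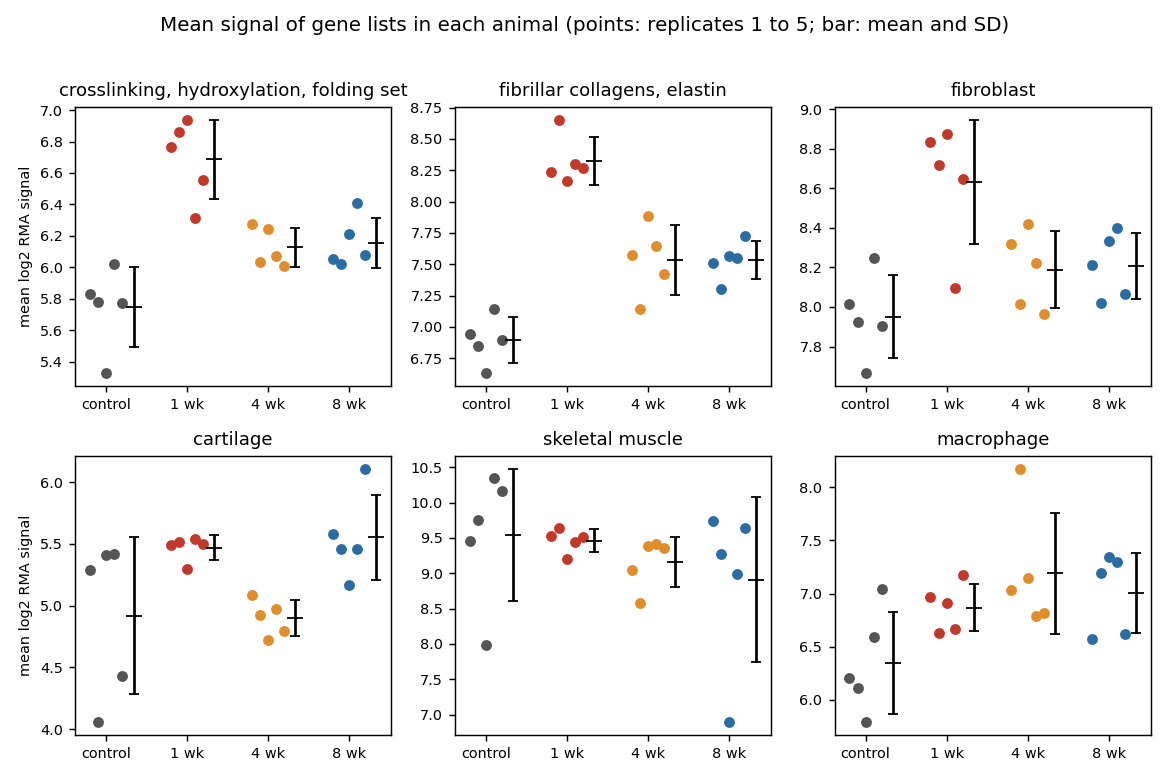
Mean log2 signal over the genes of 6 lists in each animal, by group (points are replicates 1 to 5, bars the mean and SD over animals, and each panel has its own vertical axis). The 1-week animals lie above all controls for the crosslinking, hydroxylation and folding set and for the fibrillar collagens and elastin, and overlap the controls for the fibroblast, cartilage, skeletal muscle and macrophage lists.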

How the data were processed

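VF tissue of 20 rats was hybridised to Affymetrix arrays, 1 array per animal, in 4 groups of 5 taken from the sample titles. The deposited values were log2 signals that the authors made by RMA (background correction and summarisation per probe set), for which the methods also name global scaling. The methods and labels differ on the array type (Clariom S or Clariom D) and on the software that ran RMA, and the genome build is not given in the sources used here. The table holds 24871 probe sets, of which 131 manufacturer controls and 9822 without a gene name were left out, and no intensity was recomputed. Signals were compared between animals, and between probe sets only to set a gene against the background probe sets of its own array. The number of arrays, 5 a group, limits the precision.

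All 15049 named probe sets entered 1 limma fit (version 3.58.1, R 4.3.3) with 4 groups, no covariate and empirical Bayes moderation. The 6 contrasts were each adjusted by Benjamini-Hochberg over these probe sets, and an adjusted p below 0.05 was called. On data simulated for 1 week against control over 15049 genes, the script recovered 88% of 50 genes changed by 1 and 22% of 50 changed by 0.5 on the log2 scale. The simulated data had 161 calls in all, 9 of them false, against 3209 in the measured data. These rates therefore do not give the power of the measured comparison. Figures were drawn with matplotlib 3.10.9. The alternatives were other normalizations, array weights, other spread models, a replicate block, filters on dim probe sets, a fold threshold, the hybridization control signal as a covariate and leaving out each array. Genes outside the set were named by a rule, taking from each pathway list at most 4 genes, those of lowest adjusted p, together with the 5 genes that correlated best with the set's mean profile. P4ha1, P4ha2, Hspa5, Atox1, Atp7a and the marker genes were named outside it, after their values were seen. The genes, the lists and the tests were chosen with earlier results of these data known. Promoter sequences are from RefSeq, assembly GRCr8.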

Additional observations from a re-analysis of the deposited data

Results flagged for a closer look

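In the control group, the Serpinh1 signal of replicate 3 was 7.76, far below the nearest other control animal at 8.52, a gap of 0.792 of the whole range of the group. This was the 1 such value among 36 groups of 5 animals examined, and chance alone gives about 1 in 20. The same array had the lowest median of the 20.

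The test of the difference between times was passed in 4 cases in the fit over all 20 arrays, and in none of these without moderation or with only the groups compared. Loxl1 differed by -0.91 and Loxl2 by -1.12 between 4 weeks and 1 week, and Loxl2 by -0.92 and Plod2 by -1.18 between 8 weeks and 1 week, all on the log2 scale and all lower at the later time. Of the 10 fits that each leave out 1 array of the groups compared, 6, 2, 9 and 6 lost these calls in the order given.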

How the results depend on the processing

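The counts of the 9 genes called against the control group at 1 week were 6 with any 1 array left out, and those at 4 weeks 1. At 8 weeks they ran between 2 and 3. Between 4 weeks and 1 week they ran between 0 and 3 and between 8 weeks and 1 week likewise between 0 and 3, and between 8 and 4 weeks they were 0. For the 52 other pathway genes these ranges were 22 to 25 at 1 week, 9 to 15 at 4 weeks, 7 to 12 at 8 weeks, 1 to 6 between 4 weeks and 1 week, 2 to 6 between 8 weeks and 1 week, and 0 between 8 and 4 weeks. The pathway count between 8 weeks and 1 week was 2 without 8-week replicate 2, against 7.

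In the fit with the hybridization control covariate, 1 of the 9 genes was called at 1 week, 0 at 4 weeks, 0 at 8 weeks and 1 between 8 weeks and 1 week, and those of the pathway genes 2, 0 and 0 at 1, 4 and 8 weeks. This covariate differs between injured and control arrays without overlap, so that it takes up part of the group difference by construction. It moved the median of all named probe sets to -0.14 at 1 week, -0.11 at 4 weeks and -0.10 at 8 weeks, against 0.02, 0.04 and 0.04. A log2 fold change of at least 1 left 0 of the 9 genes at 8 weeks and 1 in each of the comparisons of 4 weeks and 8 weeks with 1 week, and 9, 1 and 0 pathway genes at 1, 4 and 8 weeks. Quantile normalization gave 2 of the 9 genes at 4 weeks and 5 between 8 weeks and 1 week, and 7 pathway genes between 4 weeks and 1 week. Centring on array medians gave 5 of the 9 genes between 8 weeks and 1 week and 8 pathway genes between 4 weeks and 1 week. Array weights gave 4 and 5 of the 9 genes for 4 weeks and 8 weeks against 1 week, and 7 pathway genes between 4 weeks and 1 week. The intensity trend with robust spread, and the filter on the dimmest 25% of probe sets, each gave 5 pathway genes there. Without moderation 0 of the 9 genes passed in either comparison with 1 week, and 1 and 2 pathway genes did. With only the arrays of the groups compared, 0 of the 9 genes passed in either comparison with 1 week, and 8 pathway genes passed at 4 weeks. The cause of these moves was not tested. Over all named probe sets, centring gave 1104 higher and 1348 lower calls at 4 weeks and 1026 and 1180 at 8 weeks, against 1131 and 821 at 4 weeks and 1048 and 700 at 8 weeks in the fit reported. Without control replicate 3 the calls at 1 week were 1428 higher and 2538 lower, against 1681 and 1528.

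The replicate number as a block left 1 of the 9 genes between 4 weeks and 1 week, 0 between 8 weeks and 1 week and 4 pathway genes between 8 weeks and 1 week. The deviations of same-numbered arrays gave no sign that the numbers pair the animals, though such correlations cannot exclude it. Of 30 same-numbered pairs of arrays, 6 correlated above 0.1 (range -0.27 to 0.32). The mean was -0.02, against 0.006 for the other pairs between groups, and 3 of 20 arrays were closest to their own number.

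Over 1188 values of single genes under the alternatives, 1079 kept their direction and call, 56 lost the call, 18 gained it and 35 changed sign. The sign changes concerned 9 differences that were not called, of at most 0.19 in size. Loxl4 at 1 week was -0.051 with array weights and -0.080 with the covariate, and at 4 weeks -0.0019 with centring, -0.018 with array weights and -0.099 with the covariate. Between 4 weeks and 1 week it was 0.033 with array weights. P4ha3 at 4 weeks was -0.031, -0.023 and -0.090 with quantile normalization, centring and array weights, and at 8 weeks -0.065 with array weights. Plod1 with the covariate was -0.069 at 4 weeks and -0.19 at 8 weeks, and at 8 weeks -0.084 with array weights. Fkbp10 between 8 and 4 weeks was -1e-04 with array weights. With 1 array left out, Loxl4 was -0.010 to 0.14 at 1 week, -0.056 to 0.14 at 4 weeks and -0.12 to 0.071 between 4 weeks and 1 week. P4ha3 was -0.086 to 0.14 at 4 weeks, -0.017 to 0.21 at 8 weeks and -0.014 to 0.15 between 8 and 4 weeks. Plod1 at 8 weeks ran between -0.10 and 0.14, and Fkbp10 between 8 and 4 weeks between -0.04 and 0.15. Signals near background, as for Loxl3 and P4ha3, limit how small a change can be read.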
